A study of Arabidopsis thaliana with 6 samples.

Results

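FRO3 and ZIP5 are the members of the iron reductase and zinc transporter families that the authors listed as higher in seedlings of the mrg1 mrg2 double mutant. They were chosen by name from the authors' table of higher genes, and so for a difference between the genotypes: they are 2 of 531 genes listed as higher and of 552 genes listed in all. The genotype values of FRO3 and ZIP5 are therefore a description, and no test of that difference was made.

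The mrg1 mrg2 double mutant and the Col-0 wild type, both in the Columbia-0 background, were grown on soil at 22 °C in days of 16 h light and 8 h dark. Both were stratified for 3 days and grown under light of 100 µmol per square metre per second. Leaves and stems were taken at an age of 12 days, 8 h after the start of the light period (zeitgeber time 8). Each genotype gave 3 libraries, numbered 1 to 3, and the submitters describe the experiments behind them as independent. The mutant alleles are not named in the sources used here. The MRG proteins are chromatin proteins that recognise methylated lysine 36 of histone H3. The study's title places its question in the control of stress responses around flowering.

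Plants take up iron by acidifying the soil, reducing ferric to ferrous iron and importing the ferrous ion. The reduction is done by ferric reductase oxidases, the FRO family, and the import by ZIP proteins, a family that carries zinc, iron and other divalent metal ions across membranes. FRO2 and the ZIP protein IRT1 serve uptake at the root surface. FRO3 is a family member that acts in mitochondria, is active in the vasculature, and in Arabidopsis rises in iron-starved plants and is repressed by the basic helix-loop-helix factor POPEYE (PYE). ZIP5 is a predicted zinc transporter whose RNA rises in zinc-starved Arabidopsis under the factors bZIP19 and bZIP23. FRO3 is thus not itself an uptake protein of the cell surface.

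Both genes lie on chromosome 1 and are read from the minus strand. FRO3 (AT1G23020) spans 8149868 to 8153796 and ZIP5 (AT1G05300) spans 1544927 to 1547849 in the RefSeq annotation of TAIR10.1. RefSeq gives FRO3 7 transcripts with 8 to 10 exons, and ZIP5 2 transcripts with 2 or 3 exons. The sequence around each annotated 5′ end is shown because the factors named above act through short promoter motifs. Each sequence runs from 250 bases before the 5′ end of the gene to 20 bases after it, with matches to the G-box or E-box in capitals (FRO3, chr1:8153777-8154046; ZIP5, chr1:1547830-1548099; both minus strand, TAIR10.1, from RefSeq).
FRO3: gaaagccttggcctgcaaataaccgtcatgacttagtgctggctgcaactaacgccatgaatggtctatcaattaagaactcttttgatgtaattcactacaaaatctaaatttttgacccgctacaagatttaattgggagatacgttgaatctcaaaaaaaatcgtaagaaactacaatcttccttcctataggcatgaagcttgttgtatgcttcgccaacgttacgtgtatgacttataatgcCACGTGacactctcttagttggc
ZIP5: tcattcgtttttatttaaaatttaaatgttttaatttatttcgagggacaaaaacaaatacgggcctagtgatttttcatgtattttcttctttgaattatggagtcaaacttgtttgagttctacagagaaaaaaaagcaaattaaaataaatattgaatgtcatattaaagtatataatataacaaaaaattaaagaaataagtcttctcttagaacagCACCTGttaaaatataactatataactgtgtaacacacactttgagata

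Motifs were searched on both strands of this window. The G-box CACGTG, a palindrome bound by basic helix-loop-helix and other factors, occurred 1 time in FRO3, with its first base 3 bases before the annotated start, and was not found in ZIP5. It was found in 7.02% of 27443 nuclear protein-coding genes. The wider E-box CANNTG, of which the G-box is a special case, occurred 1 time in each gene; in ZIP5 it began 29 bases before the start. E-boxes were found in 58.0% of genes. GTCGAC, the inner part of the zinc deficiency response element, was found in neither window and in 1.85% of genes, and GTAC, the core bound by the copper regulator SPL7, was found in neither and in 36.3% of genes. Bases further upstream were not searched, so either motif may lie there. The windows differed in base composition, with 38.9% G and C in FRO3 and 24.1% in ZIP5, against a median of 31.5% over all genes. The transcripts of each gene start at more than 1 place, so each window and motif position belongs to the outermost start.

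**Figure D1:**
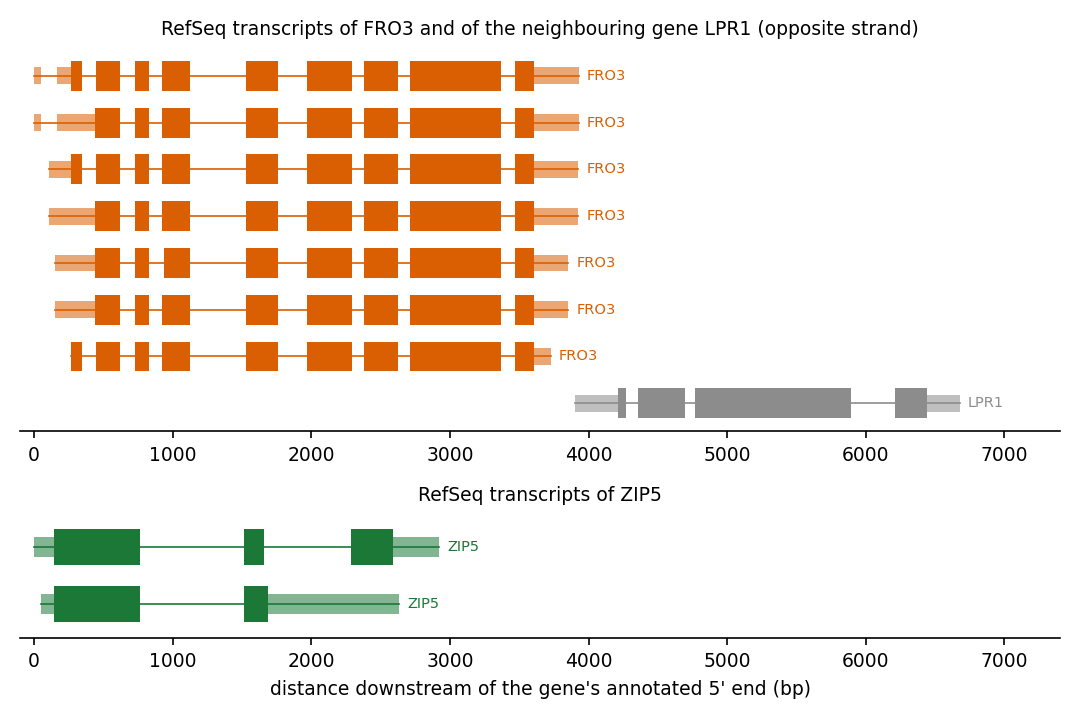
RefSeq transcripts of FRO3 with its neighbour LPR1 (upper panel) and of ZIP5 (lower panel), drawn by distance in bp from the annotated 5′ end of FRO3 or ZIP5; thick boxes are coding parts of exons, thin boxes are untranslated parts and lines are introns. The 3′ end of FRO3 overlaps the 3′ end of LPR1, which is read from the other strand, by 24 bp.

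The 3′ end of FRO3 overlaps by 24 bp the 3′ end of LPR1 (AT1G23010), which encodes a multicopper oxidase with a role in the root response to low phosphate. LPR1 was not listed as changed. The nearest protein-coding gene on the other side of FRO3, AT1G23030, was not listed either, nor were the protein-coding neighbours of ZIP5, AT1G05291 and AT1G05310. Of 2344 stretches of 50 bases within FRO3 exons and 2080 within ZIP5 exons, 0 occurred a second time in the nuclear genome on either strand. Reads of 50 bp that match these exons without error therefore had a single place of origin there.

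The label of the mutant was checked on MRG2 (AT1G02740). MRG2 had 188, 111 and 96 raw counts in mrg1 mrg2 replicates 1 to 3, against 437, 380 and 403 in Col-0. Every mutant library was below every Col-0 library, as the genotype label implies. MRG1 was not among the listed genes and has no values here, so the check bears on MRG2 alone and the mrg1 part of the label was not checked. Since the tables hold listed genes alone, library depth is known only as the minimum read number that the labels state, and the leaf markers RBCS1A, LHCB1.1, LHCB1.3 and RCA have no values here. Root markers were considered because both genes are known from roots: 0 of 14, including CASP1 to CASP5, WOX5, PLT1, PIN2 and PYK10, were listed in either direction, where 2.31% of all genes inferred to have been tested were listed as higher and 0.0913% as lower. At these shares 0 of 14 tells nothing about root markers. Their levels are therefore unknown here, and the part of root tissue in the values was not tested.

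FRO3 RNA was higher in the mutant by a similar proportion in each replicate pair. FRO3 had 1918, 2268 and 1452 raw counts in mrg1 mrg2 replicates 1, 2 and 3, against 1036, 1117 and 788 in Col-0 replicates 1, 2 and 3. The lowest mutant library exceeded the highest Col-0 library, as was so for 530 of the 531 genes listed as higher. Paired by replicate number, the mutant had 1.85, 2.03 and 1.84 times the raw Col-0 count, a surplus of 882, 1151 and 664 reads. In whole shoots, more RNA per cell and more cells that hold the RNA cannot be told apart. Counting error alone is 2.1 to 3.56% of a single FRO3 count.

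Normalized counts, which are raw counts divided by a size factor for each library that was recovered from the authors' fold changes, gave the same picture. FRO3 had 2010, 2111 and 1489 normalized counts in mrg1 mrg2, against 1019, 1153 and 776 in Col-0. The mean was 1870 ± 334 in mrg1 mrg2 and 983 ± 191 in Col-0 (SD, n = 3 each), a 1.90-fold higher level in the mutant. Within each genotype FRO3 varied by more than counting error, with a coefficient of variation of 17.9% in the mutant and 19.5% in Col-0. That variation followed the replicate number: replicate 2 was highest and replicate 3 lowest in both genotypes. The ratio of mutant to Col-0 was 1.97, 1.83 and 1.92 in pairs 1, 2 and 3, a narrower range than that of the levels.

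ZIP5 RNA was higher in the mutant by a smaller proportion and from a lower level. ZIP5 had 330, 405 and 371 raw counts in mrg1 mrg2 replicates 1, 2 and 3, against 215, 253 and 264 in Col-0 replicates 1, 2 and 3. The genotypes again did not overlap, as in 530 of the 531 listed genes. In pairs the mutant had 1.53, 1.60 and 1.41 times the raw Col-0 count, a surplus of 115, 152 and 107 reads. Counting error is 4.97 to 6.82% of a single ZIP5 count.

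ZIP5 had 346, 377 and 380 normalized counts in mrg1 mrg2, against 211, 261 and 260 in Col-0. The mean was 368 ± 19.1 in mrg1 mrg2 and 244 ± 28.4 in Col-0 (SD, n = 3 each), a 1.51-fold higher level in the mutant. The coefficient of variation was 5.18% in the mutant, close to the 5.21% that counting alone gives at that level, and 11.6% in Col-0, against 6.40% from counting. Replicate 1 was the lowest library in both genotypes. Replicates 2 and 3 were close to each other in both. The ratio of mutant to Col-0 was 1.64 in pair 1, 1.44 in pair 2 and 1.46 in pair 3, so the pair with the lowest levels had the largest ratio.

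**Figure D2:**
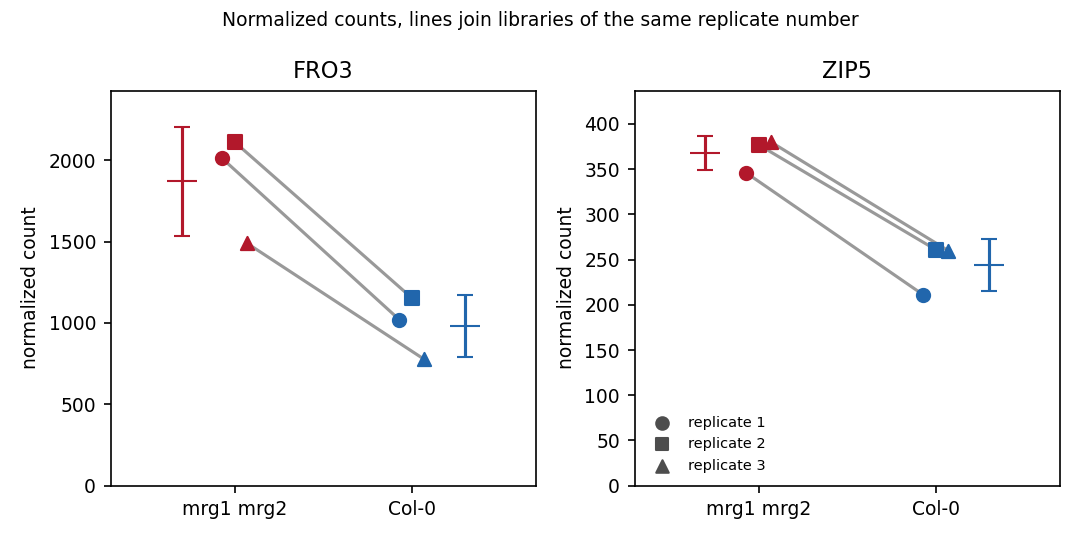
Normalized counts of FRO3 (left) and ZIP5 (right) in the 3 mrg1 mrg2 and 3 Col-0 libraries; symbols mark the replicate number and are set slightly apart, lines join libraries of the same number, and the bars beside them are mean ± SD. FRO3 averages 1870 in mrg1 mrg2 and 983 in Col-0, ZIP5 averages 368 in mrg1 mrg2 and 244 in Col-0, and in both genes every mutant library lies above every Col-0 library, as in 530 of the 531 genes listed as higher.

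The authors' deposited table gave FRO3 a log2 fold change of 0.93, with a p-value of 8.29e-06 and an adjusted p of 8.21e-04. For ZIP5 the authors' deposited table gave 0.59, with a p-value of 1.36e-04 and an adjusted p of 0.00776. These are the values by which the genes came to be listed. From the relation between p-values and adjusted p-values, a total of 22995 tested genes was inferred, of which 2.31% were listed as higher and 0.0913% as lower. ZIP5 stood at the lower edge of the list: 1 of 531 genes, CCD4, had a smaller log2 fold change, 0.591 as for ZIP5 at this rounding, and the next gene above ZIP5 had 0.592. No gene listed as higher had a fold below 1.51, so this place reflects where the list ends. By rank, 195 genes within the p-value range of the list were not listed. An unlisted gene may therefore have a small p-value, and genes with smaller increases have no values here. FRO3 ranked 338 by log2 fold change, below the median of 1.08, but 192 by adjusted p and 46 by mean count.

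**Figure D3:**
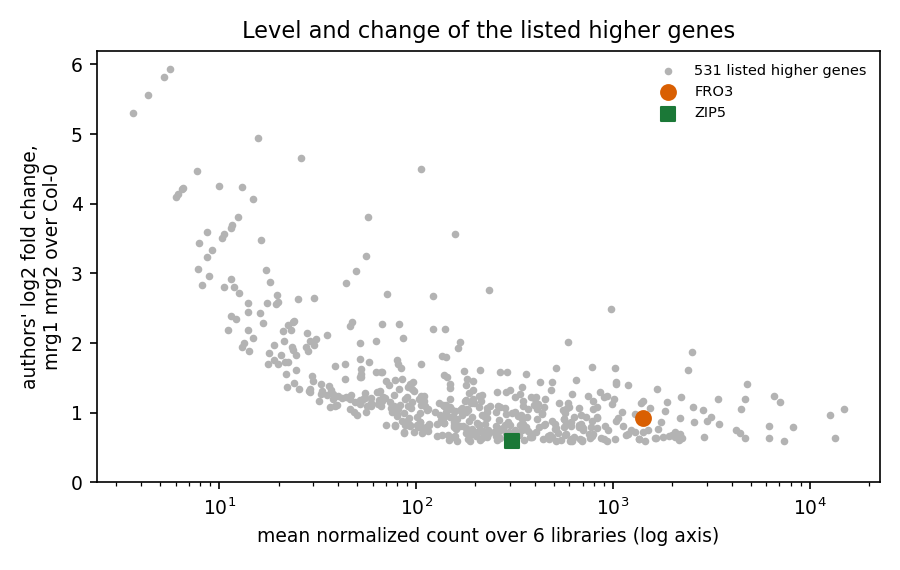
Authors' log2 fold change, mrg1 mrg2 over Col-0, against the mean normalized count over the 6 libraries (log axis) for the 531 genes listed as higher, with FRO3 and ZIP5 marked. FRO3, at 0.93, is among the more abundant genes, and ZIP5, at 0.59, lies on the lower edge of the changes listed.

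The ratios of FRO3 were steady for a listed gene, though counting error is smaller in more abundant genes. FRO3 averaged 1426 normalized counts over the 6 libraries and ZIP5 averaged 306, against a median of 170 for the 531 higher genes. The ranges given here were not adjusted for level. Over the 510 higher genes with reads in every Col-0 library, the log2 ratio of mutant to Col-0 had a median of 0.90 in pair 1, 1.11 in pair 2 and 1.14 in pair 3. FRO3 had 0.98, 0.87 and 0.94 and ZIP5 had 0.71, 0.53 and 0.55. The range over the pairs was 0.11 for FRO3 and 0.18 for ZIP5, against a median range of 0.52; FRO3 ranked 19 and ZIP5 ranked 53 from the narrowest. By contrast the spread of FRO3 within a genotype, an SD of 0.28 on the log2 scale, was near the median of 0.26, and that of ZIP5 was 0.13. FRO3 shared its order of replicates between the genotypes with 26.2% of the 531 higher genes. Replicate 3 was lowest in both genotypes for 22.8% of them, and replicate 1, as in ZIP5, for 15.3%.

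**Figure D4:**
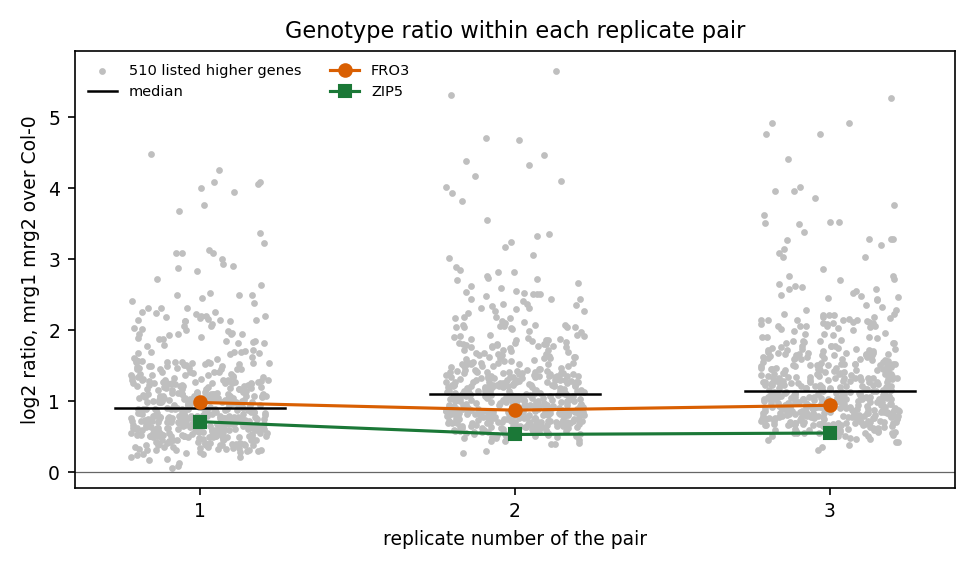
Log2 ratio of normalized counts, mrg1 mrg2 over Col-0, within each replicate pair for the 510 higher genes with reads in every Col-0 library (grey points, spread sideways for visibility; black line, median), with FRO3 and ZIP5 joined by lines. FRO3 stays between 0.87 and 0.98 and ZIP5 between 0.53 and 0.71, while the median moves between 0.90 and 1.14.

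The change of FRO3 was set against that of ZIP5 through the number of FRO3 reads per ZIP5 read in the same library, a ratio from which library size cancels. This ratio was 5.81, 5.60 and 3.91 in mrg1 mrg2 replicates 1, 2 and 3, against 4.82, 4.42 and 2.98 in Col-0 replicates 1, 2 and 3. It was higher in the mutant in each of the 3 pairs, but the genotypes overlapped, since mutant replicate 3 lay below Col-0 replicates 1 and 2. On the log2 scale the change of ZIP5 minus that of FRO3 was -0.33 (two-sided exact permutation test of 3 against 3 libraries, p = 0.3, where the smallest possible p is 0.1). Within pairs the difference was -0.27, -0.34 and -0.39, with an SD of 0.061 over the 3 pairs (two-sided exact sign-flip test, p = 0.25, the smallest that 3 pairs allow). Neither of these exact tests can reach 0.05 with 3 libraries of each genotype, and no other test of the difference was made. The value moved most when a replicate 3 library was left out: it was -0.13 without Col-0 replicate 3 and -0.52 without mrg1 mrg2 replicate 3.

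Per length, FRO3 RNA was the more abundant in every library. With 2785 bp of annotated exon for FRO3 and 2178 bp for ZIP5, FRO3 had 671 ± 120 normalized counts per kb in mrg1 mrg2 and 353 ± 68.7 in Col-0, and ZIP5 had 169 ± 8.75 in mrg1 mrg2 and 112 ± 13.0 in Col-0 (SD, n = 3 each). The level of FRO3 over that of ZIP5 per kb was 4.00 ± 0.813 in mrg1 mrg2 and 3.19 ± 0.754 in Col-0 (SD, n = 3 each). The exon length of each gene includes an intron that only some of its transcripts keep. Single transcripts have 2271 to 2730 bp in FRO3 and 1554 to 1838 bp in ZIP5. The level per kb of each gene therefore depends on which transcripts are present.

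The other members of the metal gene lists were absent from both tables. Of the 8 FRO genes, FRO3 was listed as higher and 7 were not listed, among them FRO2, the root surface reductase, and FRO6 and FRO7, which act in leaves. Of the 15 genes of the ZIP family, ZIP5 was listed as higher and 14 were not listed, among them IRT1 and the zinc-responsive ZIP4 and ZIP9. Of 18 iron regulators, 0 were listed: these include FIT, which drives iron uptake in the root, PYE, the iron-sensing ubiquitin ligase BTS and the iron-deficiency marker genes BHLH38, BHLH39, BHLH100 and BHLH101. Of 29 genes of iron transport and storage, 0 were listed, among them the ferritins FER1 to FER4, the nicotianamine synthases NAS1 to NAS4 and the phloem transporter OPT3. Of 11 zinc genes, including BZIP19, BZIP23, HMA2, HMA4 and MTP1, and of 14 copper genes, including SPL7, COPT2, CSD1 and CSD2, 0 were listed. Beyond FRO3 and ZIP5, 0 of 93 genes in the 6 lists were listed as higher or lower in the authors' DESeq2 tables. Of the 22995 genes inferred to have been tested, 2.31% were listed as higher and 0.0913% as lower. Whether each of the 93 genes was expressed in leaves and stems, or tested at all, is not known. With background shares this small, 0 of 93 does not set metal genes apart from other genes. Unlisted genes have no p-value or count here, so the number at an unadjusted p below 0.05 is not known, and an unlisted gene may still differ.

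FRO3 and ZIP5 did not follow each other closely across the libraries. Likeness was measured as the root mean square difference of log2(normalized count + 1) over the 6 libraries, with each gene centred on its own mean, among 434 listed genes with a mean of at least 50 normalized counts. Because the listed genes share a genotype difference, this measure mostly ranks the size of that difference and the order of replicates. ZIP5 lay at 0.326 from FRO3, where the median over all 434 genes was 0.317, and ranked 232. The genes most like FRO3 were CYP89A9 at 0.076, a cytochrome P450 of chlorophyll breakdown, AT4G13495 at 0.085, a noncoding RNA, and AT3G04960 at 0.086, a protein with a domain of unknown function. The genes most like ZIP5 were AT1G11170 at 0.062, RABH1E at 0.075, a small GTPase of vesicle transport, and ACR1 at 0.075, an ACT domain protein.

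Their levels differed widely. CYP89A9 had 714 ± 139 normalized counts in mrg1 mrg2 and 410 ± 98.8 in Col-0, and AT4G13495 had 20187 ± 3280 in mrg1 mrg2 and 9675 ± 1632 in Col-0 (SD, n = 3 each). ACR1 had 729 ± 78.9 normalized counts in mrg1 mrg2 and 482 ± 79.1 in Col-0, and RABH1E had 226 ± 15.2 in mrg1 mrg2 and 150 ± 13.3 in Col-0 (SD, n = 3 each). In CYP89A9, AT4G13495 and AT3G04960, as in FRO3, replicate 3 was the lowest library of each genotype and replicate 2 the highest. In AT1G11170, RABH1E and ACR1, as in ZIP5, replicate 1 was the lowest of each genotype. These genes were picked for likeness over the same libraries, so a shared order follows in part from the choice.

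**Figure D5:**
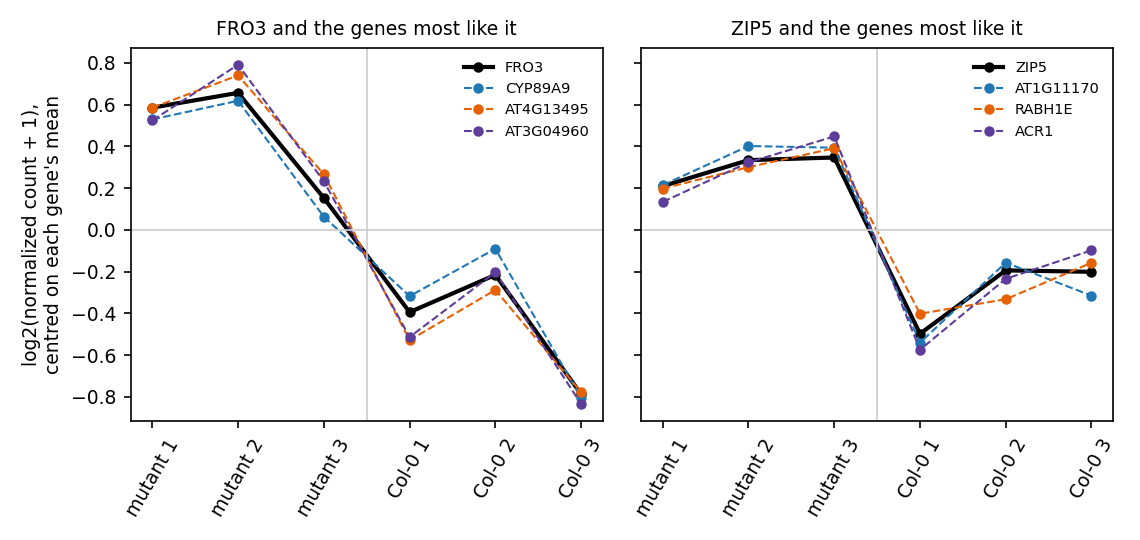
log2(normalized count + 1) in each of the 6 libraries, centred on each gene's own mean, for FRO3 and its 3 most like genes (left) and ZIP5 and its 3 most like genes (right); mutant libraries stand left of Col-0 libraries. The FRO3 group is lowest in replicate 3 of each genotype and the ZIP5 group is lowest in replicate 1, orders that the choice by likeness favours.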

How the data were processed

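RNA was measured in 6 libraries, 3 of each genotype. Per the labels' protocols, ribosomal RNA was removed before stranded library preparation, and single reads of 50 bp were sequenced. Per the submitters' processing notes, TAIR10 and DESeq2 were used; no aligner or counting tool is given in the sources used here. The deposited raw counts are whole reads per gene, not normalized, for 552 listed genes. The deposited log2 fold change, p-value and adjusted p-value (at most 0.0497) of each gene come from the authors' test.

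Size factors, between 0.954 and 1.07, were recovered by a least squares fit of the counts to the authors' log2 values, using 350 genes whose count reached 50 in every library (residual SD 6.63e-04, against 0.00935 with equal factors); the fit was tested on simulated data. Per-sample depth is unknown from listed genes. No count model was fitted, since FRO3 and ZIP5 were chosen for the contrast and unlisted genes have no counts. The authors' last listed gene would rank 747, so 195 genes in that range are not analysed here.

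Deviations from genotype means correlated with r = 0.40, 0.55 and 0.32 over 435 genes for libraries of the same number. For other pairs r was -0.42 to 0.02. The deviations of a gene cancel within a genotype, so the lower values follow in part from the higher ones and are not separate evidence. Numbers were taken to pair the libraries, which was not tested, and genes are not independent replicates. Within a genotype, library pairs had a chi-square per degree of freedom of 12.7 to 36.1, where counting noise gives about 1. FRO3 and ZIP5 and all gene lists were chosen with earlier results of these data known. Genes named are FRO3, ZIP5, MRG2, listed genes of the lists, chromosomal neighbours and the 3 most like each gene. All 95 metal genes matched RefSeq by locus tag. Python 3.11.15, numpy 2.4.6 and scipy 1.17.1 were used.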

Additional observations from a re-analysis of the deposited data

How the results depend on the processing

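The log2 change of FRO3 stayed between 0.92 and 0.94, and that of ZIP5 between 0.58 and 0.60, with raw counts, with size factors from genes with at least 200 counts, with a pseudocount of 5 and with replicate block (0.93 for FRO3 and 0.60 for ZIP5, as means of the ratios within pairs). With each library left out in turn, FRO3 ranged from 0.78 to 1.07 and ZIP5 from 0.50 to 0.64. ZIP5 minus FRO3 was -0.33 with and without the replicate block and kept its sign throughout, but was -0.13 without Col-0 replicate 3 and -0.52 without mrg1 mrg2 replicate 3 (exact permutation test, p = 0.6 and 0.2). With listed genes limited to a log2 fold change of at least 1, 0 metal genes remained; with an adjusted p of at most 0.01, both did. Of the 3 genes most like FRO3, and of the 3 most like ZIP5, between 1 and 3 were kept when a library was left out; the cause was not tested. Counts of ZIP5 carry a counting error above that of FRO3, and unlisted genes give no value.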

Other observations

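LPR2 (AT1G71040), a multicopper oxidase gene and relative of the LPR1 gene that overlaps the 3′ end of FRO3, was itself listed as higher. It belonged to none of the lists and was picked out after its values were seen. LPR2 had 2255, 2336 and 2033 raw counts in mrg1 mrg2 replicates 1 to 3, against 1683, 1347 and 1168 in Col-0. Its mean was 2208 ± 142 normalized counts in mrg1 mrg2 and 1399 ± 253 in Col-0 (SD, n = 3 each). The genotypes did not overlap, which held for 530 of the 531 genes listed as higher. The authors' deposited table gave LPR2 a log2 fold change of 0.66 with an adjusted p of 0.00447. Like FRO3, LPR2 was lowest in replicate 3 of both genotypes. Unlike FRO3, LPR2 was highest in replicate 1 of both genotypes by normalized counts, though its raw counts in mrg1 mrg2 were highest in replicate 2.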
